A study of Mus musculus with 2 samples.

Results

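The respiratory chain was followed here through the genes that encode it: protein-coding genes whose mouse symbols start with Nduf (complex I and its assembly factors), Uqcr (complex III), Cox4 to Cox8 (complex IV) or Atp5 (ATP synthase, complex V), with Sdha to Sdhd (complex II), Cycs (cytochrome c) and the genes of the mitochondrial genome. They were chosen by name from the GENCODE M21 annotation, which left 108 of the 31053 genes in the deposited tables, 95 nuclear and 13 mitochondrially encoded. They carry 107 symbols, because Atp5o has a second identifier, which overlaps it by 1769 bases and held no UMI. By role, the nuclear members were 7 core and 29 accessory subunits of complex I, 8 complex I assembly factors, 4 genes of complex II, 8 of complex III, Cycs, 20 of complex IV, and 7 genes of the F1 and 11 of the Fo part of ATP synthase. The mitochondrial genome gives 7 subunits of complex I, 1 of complex III, 3 of complex IV and 2 of ATP synthase.

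RNA was counted in single cells sorted as LSK (lineage-low or lineage-negative, Sca1-positive, c-Kit-high), the gate that holds mouse blood stem and multipotent progenitor cells. Both groups came from C57BL/6 mice aged 6 to 8 weeks when 750000 Hepa1-6 cells, a mouse hepatoma line, were injected into the left lobe of the liver. The spleen gave 1 library of 6546 cells and the bone marrow 1 library of 10088 cells. No tumour-free mice are among the samples, how many mice gave each library is unknown, and tissue, sort and library preparation differ together, so they cannot be told apart. Cells had first been enriched on magnetic beads, by lineage depletion or for CD117, and the labels do not say which way served which tissue.

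The spleen library held 85937174 UMIs (median 9978 per cell) and the bone marrow library 73740963 (median 5991 per cell), and 16 cell barcodes occurred in both. Cells with a reference label of a dendritic cell, macrophage, T, NK, B or mast cell or basophil made up 53.9% of the spleen cells and 1.19% of the bone marrow cells. The summed level of 8 dendritic markers was 18194 CPM (UMIs per 1000000 UMIs of all genes) in the spleen against 1101 CPM in the bone marrow, that of 7 stem cell markers 259 against 1025 CPM, and that of 8 erythroid markers 1563 against 300.4 CPM. The same sums were 816 against 27.0 CPM for mast cell or basophil markers, 538 against 121 CPM for T, NK or innate lymphoid markers (Cd3e held no UMI in the bone marrow), 23.4 against 45.3 CPM for B cell markers, 219 against 2225 CPM for neutrophil markers and 1638 against 1604 CPM for markers of dividing cells. With 1 library per tissue there is no replicate and no test. Intervals in parentheses are 95% intervals that cover counting error only. They are exact, save those on ratios of quotients, which rest on a log-scale approximation. Members are described by size, with 1.5-fold as the mark.

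Electrons from NADH enter the chain at complex I and those from succinate at complex II, pass over ubiquinone to complex III, over cytochrome c to complex IV, and end on oxygen. Complexes I, III and IV pump protons, and ATP synthase uses the returning protons to make ATP. Complex II is wholly nuclear in origin, while the other complexes join nuclear subunits to a few that the mitochondrial genome encodes, so the RNA of both genomes has to be supplied together. Blood stem cells are known for a low reliance on respiration, and erythroid precursors for a burst of mitochondrial activity during haem synthesis before the organelles are cleared.

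The sequences shown are promoters of some of the members that stood at the ends of the comparisons described further on, and a mitochondrial gene that shares bases with its neighbour. Promoter windows (250 bases before to 50 after the start, RefSeq, GRCm38.p6) were found for 77 of the 94 nuclear members with their own symbol, 82 windows in all. Cycs and Cox6a1 had some of the largest excesses in the spleen, Ndufaf4 was among the members most raised in cluster MEP, and Uqcrh was the lowest measured nuclear member by spleen over bone marrow. Capitals mark matches of GCGCATGC (NRF1, the nuclear respiratory factor) or, in Uqcrh, of CCGGAAGT (ETS factors, among them GABP), on either strand.
Cycs, chr6:50566520-50566819, - strand: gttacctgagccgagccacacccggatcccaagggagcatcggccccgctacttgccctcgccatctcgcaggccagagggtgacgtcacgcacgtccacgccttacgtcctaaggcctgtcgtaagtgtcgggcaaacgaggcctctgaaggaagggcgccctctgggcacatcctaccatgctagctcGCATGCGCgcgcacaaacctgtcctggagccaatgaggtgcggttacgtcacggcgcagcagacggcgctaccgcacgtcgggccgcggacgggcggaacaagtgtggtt
Cox6a1, chr5:115348909-115349208, - strand: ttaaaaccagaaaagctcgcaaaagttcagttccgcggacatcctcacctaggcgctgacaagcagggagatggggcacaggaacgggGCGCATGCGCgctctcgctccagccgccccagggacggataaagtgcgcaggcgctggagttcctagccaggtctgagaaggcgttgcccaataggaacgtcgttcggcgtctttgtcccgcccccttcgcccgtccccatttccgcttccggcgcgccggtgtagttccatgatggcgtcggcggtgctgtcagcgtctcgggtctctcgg
Ndufaf4, chr4:24897833-24898132, + strand: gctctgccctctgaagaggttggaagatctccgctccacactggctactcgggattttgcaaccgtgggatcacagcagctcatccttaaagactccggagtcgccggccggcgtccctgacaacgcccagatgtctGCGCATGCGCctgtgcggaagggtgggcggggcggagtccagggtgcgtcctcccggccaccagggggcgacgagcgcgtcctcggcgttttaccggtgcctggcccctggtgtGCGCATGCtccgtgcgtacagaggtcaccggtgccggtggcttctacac
Uqcrh, chr4:116075021-116075320, - strand: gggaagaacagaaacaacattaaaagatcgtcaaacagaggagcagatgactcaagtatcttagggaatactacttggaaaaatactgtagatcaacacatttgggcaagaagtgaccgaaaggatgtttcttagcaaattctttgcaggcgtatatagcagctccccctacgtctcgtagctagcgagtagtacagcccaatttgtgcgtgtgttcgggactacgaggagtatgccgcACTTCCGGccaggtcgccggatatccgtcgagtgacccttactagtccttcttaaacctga
The NRF1 letters are nearly their own reverse complement, so the longer run of capitals in Cox6a1 and in Ndufaf4 is a pair of overlapping matches on opposite strands. GCGCATGC stood in the windows of 13 of 77 members (16.9%), against 3.05% of all 27025 genes with a window. AAGATGGC (YY1) stood in 11 of 77 members (14.3%), against 3.19% of all genes, and CCGGAAGT in 5 of 77 (6.49%), against 4.31%. At least 1 of the 3 words was found for 28 members (36.4%), against 9.91% of all genes. Sdhd, Atp5g1 and Cox7b, further members with a large spleen excess, held none of the 3 words in their windows. Cox6b2, the nuclear member most raised in cluster MEP, held none either. A match describes letters in a window and not the use of a site.

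The 13 mitochondrial members lie close together, and 4 neighbouring pairs share bases. mt-Atp8 and mt-Atp6 encode 2 subunits of the proton channel and share 43 bases, shown in capitals in mt-Atp8 (GENCODE M21 transcript, GRCm38).
mt-Atp8, chrM:7766-7969, + strand: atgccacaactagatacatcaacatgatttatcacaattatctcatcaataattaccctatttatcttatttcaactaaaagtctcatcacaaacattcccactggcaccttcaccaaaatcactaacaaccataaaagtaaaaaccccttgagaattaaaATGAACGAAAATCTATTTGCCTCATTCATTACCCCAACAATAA
The shared bases are 21.1% of the 204 bases of mt-Atp8, and a read inside them cannot be given to either gene. mt-Nd4l and mt-Nd4 share 7 bases, mt-Atp6 and mt-Co3 share 1, and mt-Nd5 and mt-Nd6, which lie on opposite strands, share 14.

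By summed level over all cells, the nuclear members stood higher in the spleen and the mitochondrially encoded ones somewhat lower. The nuclear members summed to 22742 CPM in the spleen, against 16684 CPM in the bone marrow, a ratio of 1.36 (1.36 to 1.37). The 13 mitochondrial members summed to 30104 CPM in the spleen, against 33576 CPM in the bone marrow, a ratio of 0.897 (0.895 to 0.898). There were thus 1.32 mitochondrially encoded UMIs for each nuclear UMI in the spleen, against 2.01 in the bone marrow, and the quotient of these, which does not depend on how libraries are scaled, was 0.658 (0.656 to 0.660). Per cell, the means were 299 nuclear and 395 mitochondrially encoded member UMIs in the spleen, against 122 and 245 in the bone marrow, where cells were sequenced to fewer UMIs.

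Levels averaged 10 CPM or more over both libraries for 86 nuclear members. At least 1.5-fold higher in the spleen were 19 of them, against 10.8% of the 8644 genes measured at that level, and 0 were at least 1.5-fold lower, against 18.3%. The spleen value was above the bone marrow value for 84 of the 86, against 41.8% of all genes. The median log2 ratio of the nuclear members was 0.44, while the median gene stood at -0.11, so the members lay 0.54 above the median gene. That of the 13 mitochondrially encoded members was -0.09, near the median gene, and 5 of the 13 had a ratio above 1. With the median gene set to a ratio of 1, 14.4% of all genes were at least 1.5-fold higher and 13.9% lower, and the count of nuclear members that much higher became 36. The count rested on cluster MEP, described further on. Without it 2 of 85 members remained past 1.5-fold, against 8.35% of all genes. With the clusters weighted alike in both tissues 1 of 86 did, against 4.72%. Without cells labelled as other cell types it was 43 of 86, against 14.4%. Among cells with 5000 to 15000 UMIs, a window chosen after the data were seen, it was 0 of 85, against 8.40%. The median log2 ratio of the nuclear members still lay above the median gene without MEP, at 0.16 against -0.15. Among cells with 5000 to 15000 UMIs it was 0.13, against -0.16.

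**Figure D1:**
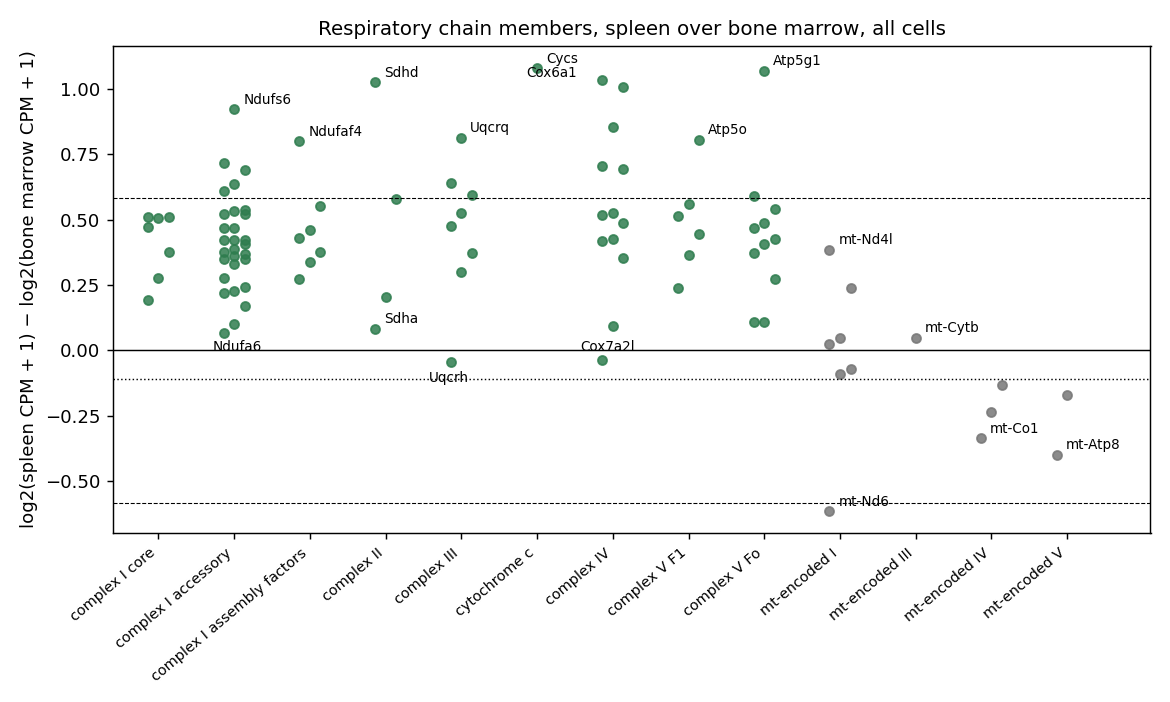
Log2 ratio of spleen over bone marrow CPM (1 CPM added to each) for each of the 86 nuclear (green) and 13 mitochondrially encoded (grey) members with a mean of at least 10 CPM, by complex; dashed lines mark 1.5-fold and the dotted line the median of all measured genes at -0.11. Nuclear members of all complexes sit above the dotted line, and the mitochondrially encoded members of complexes IV and V sit below it.

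Complex by complex, the spleen excess was of like size. Summed CPM ratios were 1.35 for the core and 1.33 for the accessory subunits of complex I, 1.41 for its assembly factors, 1.40 for complex II, 1.30 for complex III, 1.38 for complex IV, 1.38 for F1 and 1.39 for Fo. Cycs alone stood at 2.13. These values, and those given by gene before the clusters, are over all cells, MEP included. The counts past 1.5-fold given there for each complex stand beside 10.8% of all genes higher and 18.3% lower.

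Among the core subunits of complex I, which carry its flavin and iron-sulphur clusters, 0 of 7 were past 1.5-fold. Ndufv2 had 161.9 CPM in the spleen and 113.2 CPM in the bone marrow, a ratio of 1.43 (1.39 to 1.47), and Ndufs8 had 120 and 84.1 CPM. Ndufs1 was lowest, at 49.7 CPM in the spleen and 43.3 CPM in the bone marrow. The values of the 7 spanned log2 ratios of 0.19 to 0.51.

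Of the 29 accessory subunits, which surround the core, 5 were past 1.5-fold. Ndufs6, a small zinc-binding subunit needed late in assembly, had 164.5 CPM in the spleen and 86.3 CPM in the bone marrow, a ratio of 1.91 (1.85 to 1.97). Ndufb6, of the membrane arm, had 132 CPM in the spleen and 80.1 CPM in the bone marrow. Ndufa6 (276 against 263 CPM) and Ndufa2 (228.5 against 213 CPM) were close to even, so the accessory subunits did not share 1 ratio.

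Of the 7 measured assembly factors, which help to build complex I and then leave it, 1 was past 1.5-fold. Ndufaf4 had 67.5 CPM in the spleen and 38.4 CPM in the bone marrow, a ratio of 1.76 (1.68 to 1.84), and Ndufaf6 had 24.8 and 16.6 CPM. Ndufaf7 (26.7 against 21.9 CPM) and Ndufaf2 (41.8 against 32.9 CPM) were lowest. Ndufaf5 stayed under the level needed, at 5.81 CPM in the spleen and 4.60 CPM in the bone marrow.

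Complex II, the succinate dehydrogenase of the citric acid cycle, was split by gene. Sdhd, a membrane anchor that binds haem and ubiquinone (chr9:50596357-50603812), had 135 CPM in the spleen and 65.9 CPM in the bone marrow, a ratio of 2.05 (1.98 to 2.12). Sdhb, the iron-sulphur subunit, had 138 CPM in the spleen and 92.1 CPM in the bone marrow. Sdhc, the partner of Sdhd in the membrane, had 76.5 CPM in the spleen and 66.2 CPM in the bone marrow, and Sdha, the flavoprotein, had 113 and 106.5 CPM. The 4 genes make 1 copy each of a 4-subunit enzyme, and their ratios ran over log2 values of 0.08 to 1.03.

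Complex III passes electrons from ubiquinol to cytochrome c. Uqcrq and Uqcr10, 2 small subunits, had 327 and 299 CPM in the spleen, against 185.5 and 192 CPM in the bone marrow, and with Uqcr11 (311 against 206 CPM) made up the 3 of 8 past 1.5-fold. Uqcrc2, a core protein, had 180 CPM in the spleen and 146 CPM in the bone marrow. Uqcrh, the hinge protein that helps cytochrome c to bind, had 571.5 CPM in the spleen and 589 CPM in the bone marrow, a ratio of 0.970 (0.958 to 0.983). With Cox7a2l it was the only nuclear member measured with a ratio under 1 over all cells. Relative to the median gene their log2 ratios were 0.06 and 0.07. Without cluster MEP, Cox7a2l stood at 1.14 and Uqcrh at 0.945. Several other members then fell under 1, among them Uqcr11 (0.932), Atp5a1 (0.911), Ndufa4 (0.869) and Cox6b2 (0.712). Cycs, the electron carrier itself, which also sets off caspase activation when it leaves mitochondria (chr6:50562563-50566538), had 135 CPM in the spleen and 63.4 CPM in the bone marrow, a ratio of 2.13 (2.06 to 2.21).

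In complex IV, which reduces oxygen, 5 of the 13 measured nuclear genes were past 1.5-fold. Cox6a1 (chr5:115345642-115348981) had 280 CPM in the spleen and 136 CPM in the bone marrow, a ratio of 2.06 (2.01 to 2.10), and Cox7b (chrX:106015700-106022450) had 359.5 and 178 CPM, a ratio of 2.02 (1.98 to 2.06). Both are small subunits on the outside of the catalytic core. Ndufa4, once counted with complex I, had 490 CPM in the spleen and 459 CPM in the bone marrow. Cox7a2l, a subunit 7A relative, had 430.5 CPM in the spleen and 441 CPM in the bone marrow.

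In the F1 head of ATP synthase, which makes ATP, 1 of 6 measured genes was past 1.5-fold. Atp5o, which joins the head to the stalk, had 285 CPM in the spleen and 163 CPM in the bone marrow, and Atp5b, the catalytic subunit, had 803.5 and 545 CPM. The lowest were Atp5a1 (521.5 against 441.5 CPM) and Atp5e (562 against 436 CPM). In the Fo part, which holds the proton channel and the stalk, Atp5g1 (chr11:96068852-96075670) had 539 CPM in the spleen and 256 CPM in the bone marrow, a ratio of 2.11 (2.07 to 2.14), and Atp5g3 had 300 and 199 CPM; these were the 2 of 11 past 1.5-fold. Atp5mpl (247 against 229 CPM) and Atp5s (12.03 against 11.08 CPM) were lowest. Cycs, Atp5g1, Cox6a1, Sdhd and Cox7b were the 5 members at least 2-fold higher in the spleen, against 4.15% of all genes.

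The mitochondrially encoded members did not move as a block over all cells. Those of complex IV summed to a spleen over bone marrow ratio of 0.842 and those of ATP synthase to 0.886, while those of complex I stood at 1.06 and that of complex III at 1.03. mt-Co1, the catalytic subunit of complex IV, had 6134 CPM in the spleen and 7745 CPM in the bone marrow, mt-Co3 had 5839 and 6884 CPM, and mt-Co2 had 4645 and 5097 CPM. All 3 were lower in the spleen over all cells, with ratios of 0.792, 0.848 and 0.911. Without cluster MEP these were 0.900, 0.979 and 1.02, and among cells with 5000 to 15000 UMIs 0.936, 0.991 and 1.02. mt-Atp6 had 5660 CPM in the spleen and 6364 CPM in the bone marrow, and mt-Atp8 had 143 and 189 CPM. In those 2 settings mt-Atp6 stood at 0.983 and 0.990, and mt-Atp8 at 0.668 and 0.670. mt-Cytb, the complex III subunit, had 2221 CPM in the spleen and 2148 CPM in the bone marrow.

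The complex I genes of the mitochondrion lay on both sides of an even ratio. mt-Nd4l had 247 CPM in the spleen and 189 CPM in the bone marrow, the highest ratio of the 13 at 1.31 (1.28 to 1.34), and mt-Nd1 had 1780 and 1509 CPM, a ratio of 1.18. mt-Nd2 had 1079 CPM in the spleen and 1044 CPM in the bone marrow, and mt-Nd4 had 1431 and 1408 CPM. These 4 and mt-Cytb were the 5 of 13 with a ratio above 1. mt-Nd3 had 337 CPM in the spleen and 354 CPM in the bone marrow, and mt-Nd5 had 548.5 and 584 CPM; relative to the median gene both turned to the higher side, at log2 values of 0.04 and 0.02. mt-Nd6, the member read from the other strand of the mitochondrial genome (chrM:13552-14070, - strand), was lowest. It had 39.8 CPM in the spleen and 61.4 CPM in the bone marrow, a ratio of 0.647 (0.619 to 0.677). It was the 1 of 13 at least 1.5-fold lower, against 18.3% of all genes.

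Among the 8 clusters of the deposited cell table, MEP stood apart in both tissues. In MEP the nuclear members summed to 30084 CPM in the spleen and 22660 CPM in the bone marrow. In the other clusters they ran between 15263 CPM (MCP) and 19495 CPM (HSC-2) in the spleen, and between 14448 CPM (HSC-1) and 19033 CPM (HSC-2) in the bone marrow. The mitochondrially encoded members showed the reverse in the spleen, at 25466 CPM in MEP, the lowest of the 8 clusters, against 28265 CPM in DCP and 36621 CPM in MCP as the ends of the rest. In the bone marrow MEP had 32817 CPM and the other clusters 33268 to 37277 CPM.

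**Figure D2:**
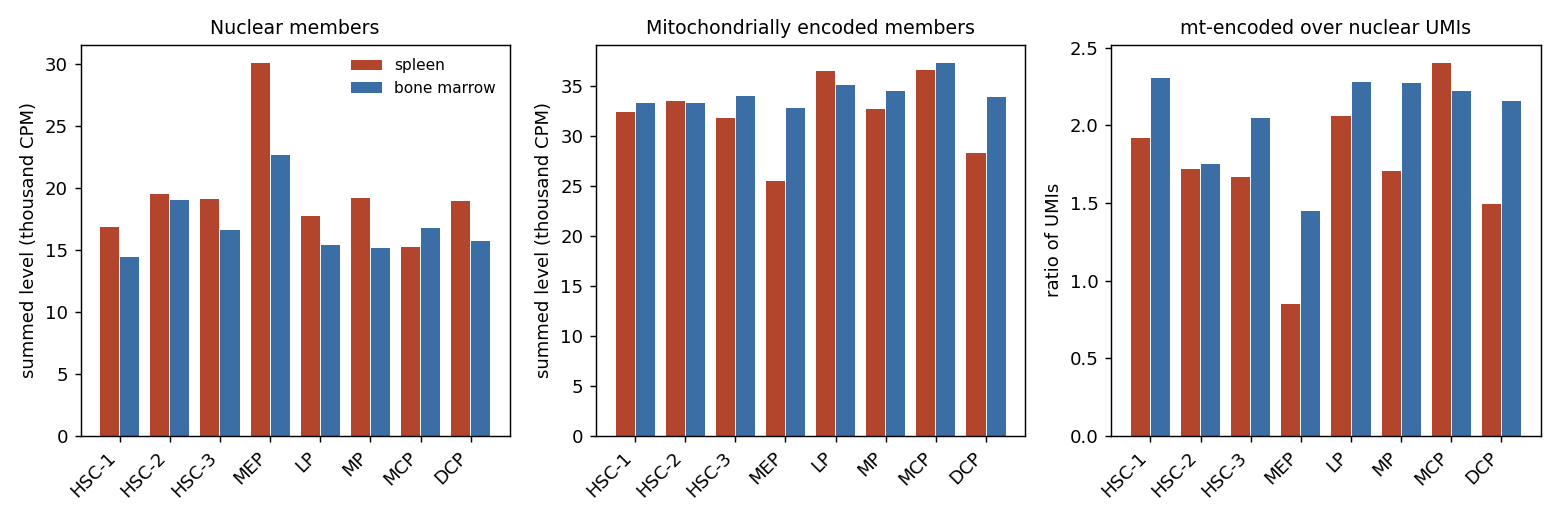
Summed CPM of the nuclear members (left), of the mitochondrially encoded members (middle) and their ratio (right) in each cluster of the cell table, spleen in red and bone marrow in blue, 1 library each; the bone marrow MCP cluster holds 36 cells. Cluster MEP has the highest nuclear level and the lowest ratio in both tissues.

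The markers fixed for erythroid cells summed to 3879 CPM in MEP of the spleen and 2827 CPM in MEP of the bone marrow, and in no other cluster of either tissue to more than 457 CPM, so the name MEP went with erythroid genes here. MEP was 891 cells in the spleen and 357 in the bone marrow, yet gave 36.8% of all spleen UMIs and 5.69% of all bone marrow UMIs, because its cells were deep: the median was 36084 UMIs in the spleen and 11230 in the bone marrow. A spleen MEP cell held on average 1068 nuclear and 904 mitochondrially encoded member UMIs, and a bone marrow MEP cell 266 and 386. The spleen MEP cells were thus the one cluster in which nuclear member UMIs outnumbered mitochondrially encoded ones. Over cells, the middle 50% of the nuclear share of UMIs ran from 2.52% to 3.27% in spleen MEP and from 1.51% to 2.58% in bone marrow MEP, and that of the mitochondrial share from 1.91% to 3.47% and from 2.54% to 3.59%.

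Of the 86 measured nuclear members, 76 had their highest level in MEP in the spleen and 68 in the bone marrow, among clusters with at least 100 cells, against 25.4% and 24.4% of all genes. Against the other clusters of the same library together, 54 of 86 were at least 1.5-fold higher in MEP in the spleen (23.5% of all genes) and 30 of 86 in the bone marrow (13.5% of all genes). Of these, 29 were in both, 53.7% of the spleen list and 96.7% of the bone marrow list. The same overlap over all genes was not counted, so this sharing cannot be set apart from that of other genes high in MEP. Just 1 nuclear member in the spleen and 0 in the bone marrow were at least 1.5-fold lower in MEP, against 34.8% and 31% of all genes. The clusters were drawn from the same counts, so these contrasts are descriptions.

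Cox6b2, a subunit 6B form best known from testis, stood furthest out. In the spleen it had 229 CPM in MEP and 35.8 CPM in the other clusters, a ratio of 6.41 (6.10 to 6.74), and in the bone marrow 199.6 and 50.2 CPM, a ratio of 3.97 (3.68 to 4.29). Ndufaf4 had 129 CPM in MEP and 31.6 CPM in the other clusters of the spleen, and 104 and 34.4 CPM in the bone marrow, ratios of 4.09 and 3.04. Atp5g1 had 1008 CPM in MEP and 266 CPM in the other clusters of the spleen, and 609 and 235 CPM in the bone marrow, ratios of 3.79 and 2.59. Cycs had 222 CPM in MEP and 84.9 CPM elsewhere in the spleen, and 139 and 58.8 CPM in the bone marrow. At the other end, Cox7a2l had 295 CPM in MEP and 509 CPM in the other clusters of the spleen, and 330 and 448 CPM in the bone marrow, and was the nuclear member with the lowest MEP ratio in both, 0.580 and 0.736.

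**Figure D3:**
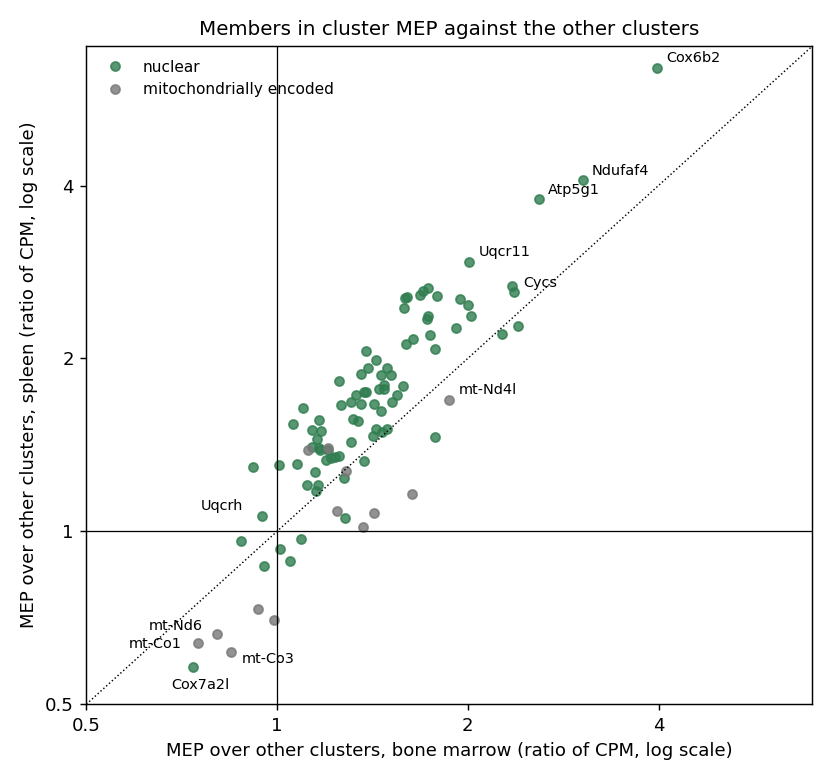
Ratio of CPM in cluster MEP over all other clusters together, in the bone marrow (horizontal) and in the spleen (vertical), both on log scales, for each of the 86 nuclear (green) and 13 mitochondrially encoded (grey) members measured; the dotted line marks equal ratios. Cox6b2, Ndufaf4 and Atp5g1 lie furthest up in both tissues, and Cox7a2l is lowest in both.

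In MEP the complex IV genes of the mitochondrion stood apart from most of its complex I genes. In the spleen mt-Co1, mt-Co2 and mt-Co3 had MEP ratios of 0.640, 0.700 and 0.615, and mt-Atp6 0.732. mt-Nd4l stood at 1.69, mt-Nd5 at 1.39, mt-Nd2 at 1.28 and mt-Nd1 at 1.16. In the bone marrow mt-Co1, mt-Co2 and mt-Co3 stood at 0.749, 0.989 and 0.846, and mt-Nd4l and mt-Nd1 at 1.87 and 1.63. The complex IV genes were thus at or below an even ratio in both tissues and mt-Nd4l and mt-Nd1 above it in both. Complexes I and V were not uniform: mt-Nd6 stood at 0.663 in the spleen and 0.805 in the bone marrow, and mt-Atp8 at 1.40 and 1.20, against 0.732 and 0.933 for mt-Atp6.

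The quotient of mitochondrially encoded to nuclear member UMIs was 0.846 in spleen MEP and 1.45 in bone marrow MEP, the lowest of the clusters in each tissue, and the spleen over bone marrow ratio of the quotients was 0.584 (0.579 to 0.590). Reference labels in the cell table split the erythroid cells further. Ery-1 cells stood at 1.86 in the spleen and 2.01 in the bone marrow, Ery-2 cells at 1.248 and 1.447, and Ery-3 cells at 0.755 (628 cells) and 1.06 (69 cells). The quotient was lower with each label from Ery-1 to Ery-3 in both tissues, and the nuclear level higher, at 31649 CPM in the spleen and 29029 CPM in the bone marrow for Ery-3.

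The depth of the cell moved with this, and MEP cells of like depth did not show the lower spleen quotient until 20000 UMIs. Among MEP cells with 5000 to 10000 UMIs the quotient was 2.03 in the spleen (48 cells) and 1.80 in the bone marrow (100 cells), and with 10000 to 15000 UMIs 1.74 (46 cells) and 1.57 (71 cells). With 15000 to 20000 UMIs it was 1.53 in the spleen (59 cells) and 1.32 in the bone marrow (65 cells), and with 20000 to 30000 UMIs 1.18 (157 cells) and 1.35 (54 cells). Spleen over bone marrow was therefore 1.13, 1.11, 1.16 and 0.873 in these 4 bins. Beyond them, at 30000 to 40000 UMIs and from 40000 UMIs up, the spleen had 228 and 351 MEP cells with quotients of 0.870 and 0.714, and the bone marrow fewer than 20 cells per bin. The 67 bone marrow MEP cells under 5000 UMIs stood at 1.46, below the next bin, and 22.4% of them had the label Ery-3.

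Over the 5000 to 15000 UMI window as a whole (94 and 171 MEP cells), the ratio of 0.584 turned to 1.11, and the nuclear level was 18542 CPM in the spleen and 19965 CPM in the bone marrow. The share of MEP cells with the Ery-3 label went with depth too, at 2.08% in the spleen and 6.00% in the bone marrow at 5000 to 10000 UMIs, and 48.4% and 40.7% at 20000 to 30000. When each cell was instead thinned to 3700 UMIs, leaving out the 672 spleen and 1007 bone marrow cells with fewer, the MEP ratio was 0.622. How far depth, cell size and stage each take part in the MEP difference was not tested. The bins were added after the data were seen.

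**Figure D4:**
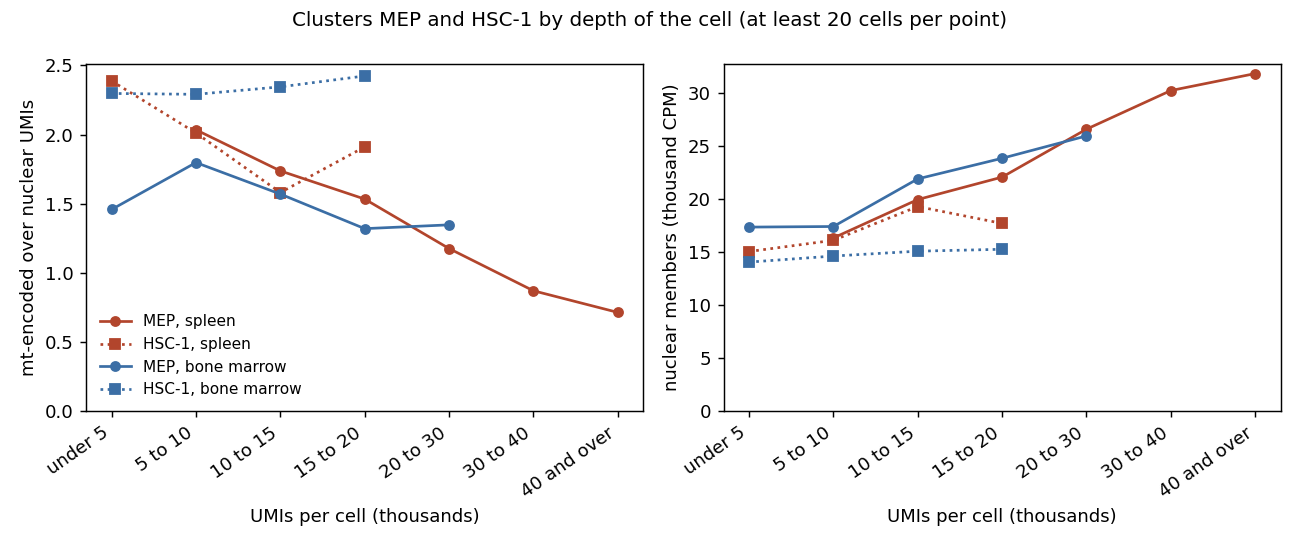
Mitochondrially encoded over nuclear member UMIs (left) and summed nuclear level (right) for cells grouped by UMIs per cell, in clusters MEP (solid, circles) and HSC-1 (dotted, squares) of the spleen (red) and the bone marrow (blue), where at least 20 cells fell in a bin. In spleen MEP the ratio is lower in each deeper bin, down to 0.714 at 40000 UMIs or more, and in bone marrow MEP it is highest at 5000 to 10000 UMIs.

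Within the other clusters the nuclear sums and the quotients differed less between the tissues, and the cells compared were not always of 1 kind. By other measures MP and DCP differed more than MEP. The median log2 ratio of the nuclear members lay 0.56 above the median gene in MP and 0.53 in DCP, against 0.47 in MEP. Among cells with 5000 to 15000 UMIs the ratio of quotients was 0.777 in MP and 0.671 in DCP, against 1.11 in MEP. HSC-1, the cluster with the highest sum of stem cell markers (882 CPM in the spleen and 1585 CPM in the bone marrow), had a nuclear level of 16865 CPM in the spleen and 14448 CPM in the bone marrow, a ratio of 1.17 (1.16 to 1.17), and a quotient of 1.92 against 2.30. There 4 of 86 nuclear members were at least 1.5-fold higher, Cox6a1 (153 against 89.6 CPM), Cycs (63.4 against 37.4 CPM), Cox7b (214 against 132 CPM) and Sdhd (82.2 against 53.2 CPM), with 4.96% of all genes, and 0 were lower, with 5.48%. The lowest of the members with at least 50 CPM was Atp5mpl, at 176 CPM in the spleen and 186 CPM in the bone marrow. In the same cluster the dendritic markers summed to 13820 CPM in the spleen and 740 CPM in the bone marrow, and 30.02% and 0.0396% of the cells had a label of another cell type; without those cells the ratio of quotients was 0.907 in place of 0.833. In HSC-2, where such labels were 12.3% and 0.0931%, the libraries were nearest to each other: the quotients were 1.72 in the spleen and 1.75 in the bone marrow, 0 of 86 nuclear members were past 1.5-fold in either direction (1.67% of all genes higher and 2.77% lower), Sdhd was highest at 102 against 75.5 CPM and Atp5mpl lowest at 218 against 286 CPM. Of the 13 mitochondrial genes, mt-Atp8 was past 1.5-fold lower in HSC-2, at 144.5 CPM in the spleen and 223.5 CPM in the bone marrow.

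In HSC-3, a cluster with dividing-cell markers at 5163 CPM in the spleen and 4658 CPM in the bone marrow, the quotients were 1.67 and 2.05. There the dendritic markers summed to 14036 CPM in the spleen and 730 CPM in the bone marrow, the T, NK or innate lymphoid markers to 726 and 98.6 CPM and the stem cell markers to 327 and 843 CPM. A label of another cell type stood on 42.8% of the 418 spleen cells and 0.244% of the 1232 bone marrow cells, and without those cells the ratio of quotients was 0.787 in place of 0.813. The members past 1.5-fold were Cox7b, Sdhd and Cycs among those higher in the spleen, 3 of 87 (5.77% of all genes), and Cox6a2 among those lower, at 7.79 against 14.5 CPM, 1 of 87 (8.77% of all genes). The lowest of the members with at least 50 CPM was Ndufa4, at 468 against 504 CPM. Between 5000 and 15000 UMIs the ratio of the HSC-3 quotients was 0.976 in place of 0.813.

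In MEP, 11 of 86 nuclear members were at least 1.5-fold higher in the spleen (7.46% of all genes) and 0 lower (13.5%). Sdhd led with 201 CPM in the spleen and 112 CPM in the bone marrow, a ratio of 1.80 (1.64 to 1.98), followed by Ndufs8 (141 against 84.8 CPM) and Atp5g1 (1008 against 609 CPM). Cox7a2l was lowest, at 295 CPM in the spleen and 330 CPM in the bone marrow. mt-Nd6 was past 1.5-fold lower, at 30.1 CPM in the spleen and 50.03 CPM in the bone marrow. MEP cells differed in depth as given above, and dividing-cell markers stood at 2222 CPM in the spleen and 1336 CPM in the bone marrow; their part in these counts was not tested.

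LP, MP and DCP too hold cells whose markers differ between the libraries. In LP the T, NK or innate lymphoid markers summed to 4355 CPM in the spleen and 162 CPM in the bone marrow; the quotients were 2.06 and 2.28, 3 of 86 nuclear members were past 1.5-fold higher, Ndufb10 (210 against 126 CPM), Sdhd and Ndufaf3 (8.9% of all genes), and 0 lower (10.7%), and Ndufa4 was lowest at 298 against 357 CPM. In MP the dendritic markers summed to 65765 CPM in the spleen and 29082 CPM in the bone marrow; the quotients were 1.71 and 2.27, 7 of 85 members were higher (8.03%), led by Cox7b at 292 against 173 CPM, Ndufs7 had 92.2 against 115 CPM, and Cox6b2 (7.56 against 27.4 CPM) and Ndufaf2 (16.0 against 27.4 CPM) were lower, 2 of 85 (29.7%). In DCP those markers summed to 47440 CPM in the spleen and to 783 CPM in the bone marrow. The dendritic genes that filled the cluster in the spleen were thus far lower in the bone marrow, though each held UMIs there. The quotients were 1.49 and 2.16, and 13 of 86 members were higher (13.7%), led by Cycs at 105 against 48.0 CPM. Cox6b2 (38.3 against 81.9 CPM) and Atp5s (9.15 against 16.3 CPM) were lower, 2 of 86 (32.5%). mt-Atp8 (110 against 176 CPM) and mt-Nd5 (331 against 552 CPM) were past 1.5-fold lower in DCP too. MCP had a quotient of 2.40 in the spleen and 2.22 in the 36 bone marrow cells, too few for a comparison.

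Sdhd was at least 1.5-fold higher in the spleen in HSC-1, HSC-3, MEP, LP, MP and DCP and 1.36-fold higher in HSC-2. Over all cells it stood at 1.57-fold with the clusters weighted alike and at 1.46-fold among cells with 5000 to 15000 UMIs, at 93.5 CPM in the spleen and 64.2 CPM in the bone marrow. Cox7b stood at 1.47-fold and 1.46-fold in those settings, Cox6a1 at 1.45-fold and 1.38-fold, and Cycs at 1.44-fold and 1.30-fold. Atp5g1, 2.11-fold higher over all cells, stood at 1.29-fold and 1.07-fold.

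Several subunits come in more than 1 gene, and the shares of these genes differed among clusters. The c subunit, which forms the rotor ring of ATP synthase, is encoded by Atp5g1, Atp5g2 and Atp5g3, whose products differ in their import sequences and give the same mature protein. UMIs of the 3′ assay count molecules and are not scaled by length, so shares within a set are shares of counted molecules. Atp5g1 gave 32.5% of the set's UMIs in the spleen (32.3% to 32.8%) and 23.6% in the bone marrow (23.3% to 23.9%). In MEP it gave 41.8% in the spleen and 36.7% in the bone marrow, and in HSC-1 20.5% and 19.9%, close to each other. Atp5g2 gave 39.2% of the set in spleen MEP and 43.3% in bone marrow MEP, against 62.7% and 60.9% in HSC-1.

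Cox6b2 gave 27.3% of subunit 6B UMIs in spleen MEP and 29.9% in bone marrow MEP, and 12.4% and 13.6% in HSC-1. It gave 2.05% in MP of the spleen and 7.83% in MP of the bone marrow, and 9.42% and 21.9% in DCP, and the remainder was Cox6b1. Cox7a2l gave 40.5% of subunit 7A UMIs in spleen MEP and 52.8% in bone marrow MEP, and 71.4% and 72.2% in HSC-1, with Cox7a2 as nearly all of the rest. Cox7a1, the heart and muscle form, held 48 UMIs in each library.

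Cox6a2, the heart and muscle form of subunit 6A, was low over all cells, at 4.03 CPM in the spleen and 6.17 CPM in the bone marrow, and reached its highest level in LP. There it had 30.3 CPM in the spleen and 30.2 CPM in the bone marrow and gave 16.4% and 20.4% of subunit 6A UMIs. At least 1 UMI of it was seen in 15.9% of spleen and 13.1% of bone marrow LP cells, against 0.142% and 1.69% of MP cells, with medians of 7899 and 5981 UMIs per LP cell and 10725 and 7394 per MP cell. In HSC-3 it had 7.79 CPM in the spleen and 14.5 CPM in the bone marrow, and of its 455 bone marrow UMIs 191 lay in HSC-3 and 152 in LP.

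Cox4i2, an alternative to Cox4i1 best known from lung, held 335 UMIs in the spleen and 202 in the bone marrow, most of them in HSC-1 and HSC-2. It had 13.3 CPM in the spleen and 2.56 CPM in the bone marrow in HSC-1, and 14.2 and 4.05 CPM in HSC-2, where 13.7% of spleen and 3.45% of bone marrow cells had a UMI. In MEP it had 0.126 CPM in the spleen and 0.476 CPM in the bone marrow, with a UMI in 0.337% and 0.560% of cells, at greater depth. Cox4i1 still gave 98.3% of subunit 4 UMIs in spleen HSC-1 and 99.6% in bone marrow HSC-1. Cox8b held no UMI, Cox8c and Cox7b2 held 2 UMIs each, in the bone marrow, and Ndufa4l2 held 3, in the spleen, so their partners Cox8a, Cox7b and Ndufa4 gave almost all UMIs of those sets.

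**Figure D5:**
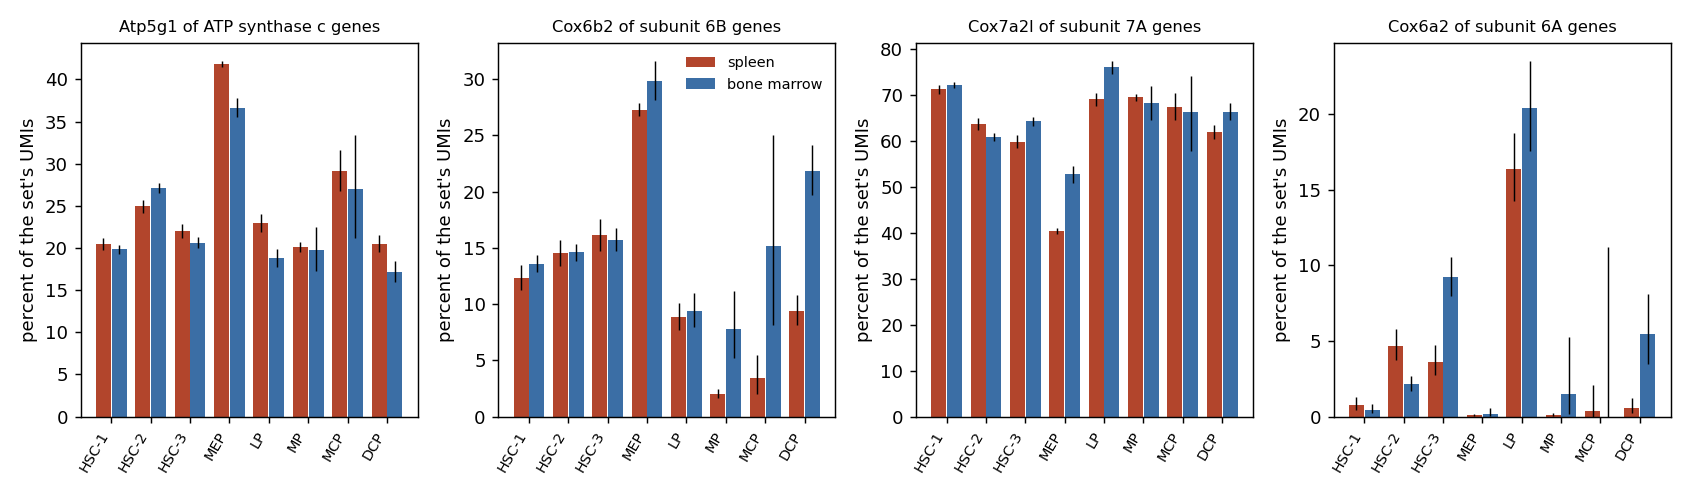
Share of Atp5g1, Cox6b2, Cox7a2l and Cox6a2 in the UMIs of their own isoform set by cluster, spleen in red and bone marrow in blue, with exact 95% binomial intervals that cover counting error only. In MEP Atp5g1 and Cox6b2 are highest and Cox7a2l lowest in both tissues, and Cox6a2 is highest in LP.

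The 5 lists of genes around the chain had smaller median ratios than the nuclear members. Of 34 measured genes in a list of assembly factors without the Nduf prefix, which served complexes I to V and was kept with Cyc1, a subunit of complex III whose symbol falls outside the rule, 2 were at least 1.5-fold higher and 0 lower, set beside 10.8% and 18.3% of all genes. Those were Cyc1, at 160 CPM in the spleen and 80.1 CPM in the bone marrow, and Coa5, at 65.9 and 42.5 CPM. Pet100, a complex IV assembly factor, was lowest at 60.5 CPM in the spleen and 75.3 CPM in the bone marrow. Of 22 genes that copy, transcribe and process mitochondrial DNA and its RNA, 1 was higher and 0 lower: Supv3l1, an RNA helicase, had 17.8 CPM in the spleen and 11.1 CPM in the bone marrow, and Tk2, a nucleotide kinase, was lowest at 15.4 and 23.2 CPM. The median log2 ratios of these lists were 0.27 and 0.07.

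Of 10 measured regulators, 0 were higher and 1 lower, beside the same 10.8% and 18.3% of all genes. The lower one, Gabpb1, a GABP subunit, had 26.4 CPM in the spleen and 60.7 CPM in the bone marrow, a ratio of 0.435 (0.414 to 0.458). In MEP it had 17.0 and 18.6 CPM. Esrra, a nuclear receptor of mitochondrial genes, was highest at 17.6 CPM in the spleen and 12.3 CPM in the bone marrow, and the list's median was -0.08. Of 17 citric acid cycle genes, 4 were higher (Fh1, Cs, Idh3a and Mdh2) and 0 lower, beside the same shares of all genes. Fh1, fumarase, had 71.7 CPM in the spleen and 41.0 CPM in the bone marrow, and Idh2 was lowest at 110 and 136 CPM. Of 18 genes of other electron entry and of exchange across the inner membrane, 4 were higher and 1 lower, beside the same shares. Ucp2, a carrier of the inner membrane, had 668 CPM in the spleen and 345 CPM in the bone marrow, and Sqor, the sulphide quinone oxidoreductase, 5.34 and 15.8 CPM; in MEP Ucp2 had 348 CPM in the spleen and 363 CPM in the bone marrow. The medians of the last 2 lists were 0.22 and 0.28, against 0.44 for the nuclear members.

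Atpif1, the inhibitor that holds ATP synthase when the proton gradient fails, and Usmg5, a small ATP synthase subunit, have symbols outside the rule and were looked up after the members' values were seen. Atpif1 had 930 CPM in the spleen and 519 CPM in the bone marrow, and in MEP 1519 and 1322 CPM. Usmg5 had 189 CPM in the spleen and 138 CPM in the bone marrow.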

How the data were processed

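The deposited tables hold counts, UMI counts of 31053 genes by cell without normalization. Per the series design text, about 27000 reads per cell were aligned to GRCm38 and counted with Cell Ranger 3.1.0. The submitters' processing notes name Seurat 3.1.5 and mm9, a build other than GRCm38, and the labels and the design text differ on the kit (3.1 or 3). The authors' filter on cells and treatment of doublets are not given in the sources used here; the highest mitochondrial share kept was 9.08% in the spleen and 9.42% in the bone marrow, with 17 and 10 cells above 8%, and a limit set on this share would bound the mitochondrial sums. Clusters and labels are those of the cell table deposited by the authors. Its integrated matrix and scores were not used here.

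Symbols and coordinates came from GENCODE M21 (GRCm38) for 31011 identifiers. UMIs were summed per library, or per cluster of a library with at least 100 cells, and scaled to CPM over all genes, with no length term. Ratios of sums have exact Poisson intervals, shares exact binomial (Clopper-Pearson) intervals and ratios of quotients a log-scale approximation, all at 95%. Log2 ratios add 1 CPM, and members were counted at a mean of at least 10 CPM (86 nuclear, 13 mitochondrially encoded). No doublet caller was run. Named were all mitochondrial genes, Cycs, complex II, the isoform sets, of each role the 2 highest and 2 lowest ratios, of each cluster the highest and lowest member with at least 50 CPM, and of each pathway list its ends; others fill counts of 5 or fewer or were chosen after their values were seen. One item that this rule names is not reported here. Members and lists, those of markers included, were chosen with earlier results of these data known. Ratios and intervals were tested on simulated data. Python 3.11.15, numpy 2.4.6, scipy 1.17.1, pandas 2.3.3 and matplotlib 3.10.9 were used.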

Additional observations from a re-analysis of the deposited data

Results flagged for a closer look

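The summed level of the mitochondrially encoded members lay on different sides of an even ratio in different clusters. The spleen over bone marrow ratio was 1.01 in HSC-2 and 1.04 in LP, where the spleen was higher. It was 0.973 in HSC-1, 0.936 in HSC-3, 0.776 in MEP, 0.950 in MP and 0.834 in DCP, where the spleen was lower. Several of these sides turned with the cells used. Without cells labelled as other cell types the ratio was 0.994 in HSC-2 and 1.01 in HSC-1. Among cells with 5000 to 15000 UMIs it was 1.005 in HSC-3 and 1.03 in MEP. Among cells with at most 5% mitochondrial UMIs it was 1.01 in MP, but that setting picks cells by the same share that the sum measures. LP stayed above and DCP below an even ratio in these 3 settings and without the deepest 2% of cells. Without other labels DCP held 46 spleen cells. With 1 library per tissue these differences between clusters were not tested. In LP, MP and DCP the marker sums differed between the libraries as given in the report, and their part in the ratios was not tested.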

How the results depend on the processing

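No paired analysis was possible because each tissue has 1 library and no replicate numbers. The ratio of quotients, 0.658 as reported, was 0.827 with clusters weighted alike, 0.817 with each cell weighted alike, 0.790 after thinning to 3700 UMIs per cell, 0.862 without MEP, 0.594 without MP, MCP and LP, 0.561 without cells of other labels, 0.690 without the deepest 2% of cells and 0.886 among cells with 5000 to 15000 UMIs (added after seeing the data). In the same order, the nuclear sum (1.36) gave 1.16, 1.22, 1.23, 1.13, 1.44, 1.51, 1.34 and 1.11, and the mitochondrial sum (0.897) gave 0.957, 0.995, 0.970, 0.976, 0.858, 0.850, 0.924 and 0.981. Scaled by the trimmed mean of M values, the median gene or the total without mitochondrial genes, the nuclear sum gave 1.47, 1.47 and 1.36 and the mitochondrial sum 0.964, 0.966 and 0.893. With at most 5% mitochondrial UMIs the mitochondrial sum was 0.895. The count of nuclear members at least 1.5-fold higher (19) was 36 by trimmed mean or median gene, 1 with clusters weighted alike, 7 with cells weighted alike or thinned, 2 without MEP, 34 without MP, MCP and LP, 43 without other labels, 0 at 5000 to 15000 UMIs, 66 at a lower mark than 1.5-fold and 5 at 2-fold. The count lower (0) became 1 at 5000 to 15000 UMIs, against 14.9% of all genes. That member was Cox6b2, at 35.3 CPM in the spleen and 55.6 CPM in the bone marrow. By cluster, 1 of 33 recomputed quotient ratios reversed: MEP, 0.584 as reported, was 1.11 among cells with 5000 to 15000 UMIs; the cause was not tested. The comparison of proteins between isoform genes was not run. Depth limits the cells of MCP in the bone marrow and members under 10 CPM.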
